A study of Drosophila melanogaster with 4 samples.

Results

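The H3K27ac regions of chromosome arm 3L were taken from 3 lists of enriched regions made from Drosophila melanogaster larvae of the third instar. There is a list for each ChIP replicate and one for the replicate set. All enriched regions on 3L with a start no higher than base 22000000 of FlyBase release 5 were used. They number 1109 of 5501 regions in replicate 1, 1100 of 5426 in replicate 2 and 1284 of 6270 in the replicate set. The animals were wild type, of strain Oregon-R, and the mark was precipitated with a rabbit polyclonal antibody against H3K27ac sold by Active Motif. The study has 4 samples, 2 of them ChIP replicates and 2 of them inputs, and no region list of an input was used here. It is not stated in the labels if the 2 replicates are separate collections, and their spread may be technical only. Chromatin came from whole larvae, which hold many cell types, so a mark present in fewer cells cannot be told apart from less of the mark in every cell.

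Acetylation of lysine 27 of histone H3 marks active promoters and enhancers, and in flies it is laid down mainly by the acetyltransferase Nejire, the homolog of mammalian CBP. It excludes methylation of the same lysine, the mark of Polycomb silencing, so a stretch of chromatin tends to carry either one or the other. Arm 3L is the left arm of chromosome 3. Its telomeric end has the low coordinates, and its far end passes into the repeat-rich heterochromatin around the centromere. Regions are given here by position, because the gene table at hand is of another release than the lists.

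H3K27ac regions covered 5.25 Mb, or 23.9%, of the 22 Mb stretch in replicate 1 and 5.00 Mb, or 22.7%, in replicate 2, a mean of 23.3% ± 0.817 (SD, n = 2). The replicate set covered 27.5%. Regions lay at 50.4 per Mb in replicate 1 and 50.0 per Mb in replicate 2. The replicates thus listed nearly the same number of regions, and replicate 1 marked slightly more sequence. Replicate 1 listed none narrower than 1301 bp and replicate 2 none narrower than 1302 bp. Median widths were 3130 bp and 3086 bp, and the middle 50% of regions ran from 2053 to 5432 bp and from 2068 to 4962 bp. Both distributions had a long upper tail, with the widest region at 38.9 kb in each replicate.

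Each region carries a score of the authors on a log2 scale whose zero point is not stated. On 3L the median score of replicate 1 was 0.76 and that of replicate 2 was 0.77, with ranges from 0.14 to 2.71 and from 0.11 to 2.41. Wide regions tended to be the high-scoring ones. The Spearman coefficient between width and score across regions was 0.84 in each replicate, given as a description, since regions share a library and a region caller. The median gap to the neighbouring region was 4913 bp for replicate 1 and 4933 bp for replicate 2, and 208 of 1108 gaps and 182 of 1099 gaps were shorter than 1 kb. Gaps this short were thus a minority, 18.8% of those in replicate 1 and 16.6% of those in replicate 2.

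Along the arm, the covered share did not change steadily from the telomeric end toward the centromere. In 22 windows of 1 Mb the mean of both replicates ran from 12.2% to 41.2%, with a median of 21.7%. The window at the telomeric end was the most covered, with 41.4% in replicate 1 and 40.9% in replicate 2. After it the next highest were the ninth window, with 33.6% and 32.5%, the twelfth, with 33.4% and 31.4%, the fourth, with 32.4% and 30.9%, and the seventeenth, with 31.6% and 30.9%. High windows were thus spread over the length of the stretch. The lowest were the seventh window, with 12.7% and 11.7%, the fourteenth, with 13.5% and 11.8%, and the sixth, with 14.3% and 13.0%. The replicates ordered the windows almost alike, with a Spearman coefficient of 0.99 over 22 windows, and never differed by more than 3.23 percentage points in a window. Replicate 1 was the higher in 21 of 22 windows. Adjacent windows resembled each other little, with a Pearson coefficient of 0.16 between neighbours.

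The rank correlation of covered share with distance from the telomeric end was close to zero, at a Spearman coefficient of -0.05 in replicate 1 and -0.03 in replicate 2 over 22 windows. Without the telomeric window, an alternative chosen after seeing the data, it was 0.10 and 0.11, so its sign rested on that window. With windows to the end of the sequence, past the limit, the mean of both replicates was -0.32. Regions tended to be narrower farther from the telomeric end. The coefficient of median region width was -0.46 in replicate 1 and -0.42 in replicate 2, and without the telomeric window it was -0.38 and -0.34. The coefficient of median score was -0.33 in each replicate, and the number of regions per window gave 0.00 and 0.08, and -0.11 in the replicate set. Without the telomeric window, median score gave -0.23 in replicate 1 and -0.24 in replicate 2. The number of regions then gave 0.14 and 0.24, and 0.01 in the replicate set. Windows of one arm share their libraries, so these coefficients are descriptions and carry no p-value.

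**Figure D1:**
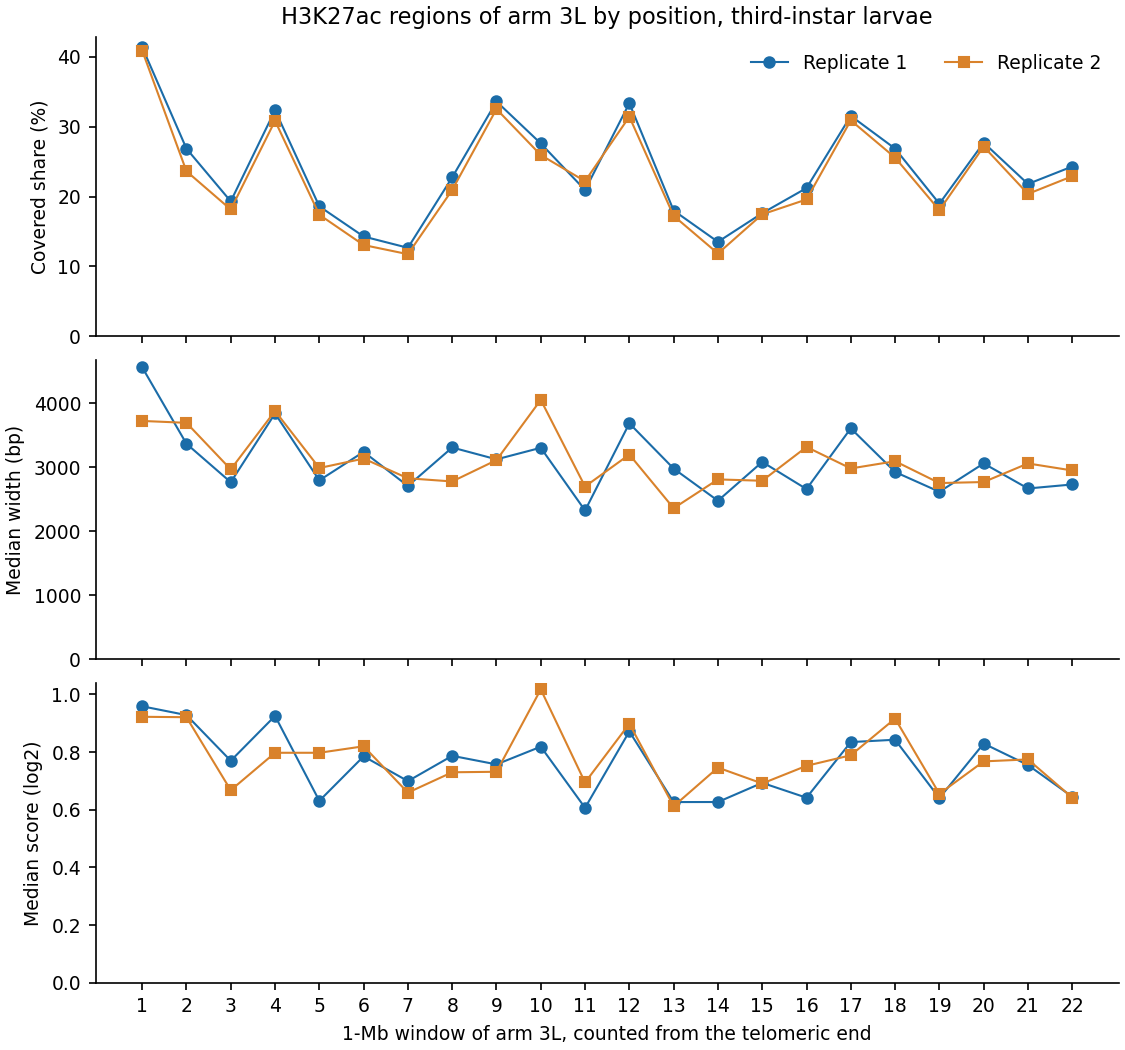
Covered share (percent), median region width (bp) and median score (log2) in 22 windows of 1 Mb along arm 3L, counted from the telomeric end, with a point for each replicate. The telomeric window has the highest covered share in both replicates, with 41.4% and 40.9%, and the lines of covered share run close together over the whole stretch.

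Sections of 5.5 Mb gave the same picture in fewer numbers. From the telomeric end, the covered share was 25.3% ± 1.05, 22.6% ± 0.625, 21.0% ± 0.755 and 24.3% ± 0.839 (SD, n = 2). The first and last sections were thus the most covered and the third the least. The first section holds the telomeric window of 1 Mb, with 41.2%, and its share was not recomputed without that window. The median width was 3396, 3081, 3176 and 2868 bp in the 4 sections of replicate 1, and 3449, 3114, 2932 and 2887 bp in those of replicate 2. The section nearest the telomere had the widest median in both replicates and the last section the narrowest. The last section nevertheless held the most regions, 296 in replicate 1 and 291 in replicate 2, against 254 and 255 in the third.

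The limit of the stretch fell in an unmarked interval. The last regions inside it were at 21964278 to 21967289 in replicate 1, with a score of 1.17, and at 21967187 to 21968736 in replicate 2, with a score of 0.43. The first regions beyond it began at 22063328 in replicate 1, with a score of 2.12, and at 22063546 in replicate 2, with a score of 1.89. In each replicate the first region outside thus scored above the last one inside. In the replicate set the last region inside ended at 21968814, with a score of 0.79, and the first beyond began at 22058858, with a score of 0.27. The last 1 Mb inside the limit was covered to 24.3% in replicate 1 and 22.9% in replicate 2, and the first 1 Mb beyond it to 14.1% in each. The whole 2.54 Mb beyond the limit was covered to 7.04% ± 0.0325 (SD, n = 2) and held 50 regions in replicate 1 and 52 in replicate 2. At the other end, the first region began at 50995 in replicate 1 and at 51372 in replicate 2, so the first 50994 bp held no region of either replicate.

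At a scale of 200 kb the mark was unevenly spread. The median of 110 windows was 21.0% covered, 10 windows were over 40%, 15 were under 10% and 1 was empty. The densest window began at 600001 and was covered to 69.0% in replicate 1, 71.3% in replicate 2 and 82.5% in the replicate set. It held 18 regions in replicate 1 and 22 in replicate 2, of which 4 and 3 were at least 10 kb wide. The window beginning at 8000001 held 20 regions in each replicate and was covered to only 41.4% and 40.5%, so the number of regions alone did not set the covered share. The next window, beginning at 11200001, was covered to 68.3% in replicate 1, 66.1% in replicate 2 and 73.1% in the replicate set. It had fewer and wider regions, 14 with 5 of at least 10 kb in replicate 1 and 11 with 7 of them in replicate 2. The windows ranked next began at 3000001, with 53.5% and 49.4%, at 16000001, with 45.1% and 48.2%, and at 3200001, with 46.6% and 45.9%. The last pair differed by less than the spread between replicates, so their order is not resolved.

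The adjacent pair of windows from 3000001 to 3400000 contained the highest-scoring both-replicate region of the arm, at 3191900 to 3200109. A both-replicate region is a stretch that lies inside a region of each replicate. This one scored 2.71 in replicate 1, 2.33 in replicate 2 and 2.49 in the replicate set, over widths of 8.53 kb (replicate 1) and 8.23 kb (replicate 2). The fifth highest, at 3057390 to 3062279, lay in the same pair of windows, with scores of 2.22 and 2.38. High score did not require great width. The second highest, at 14029111 to 14033081, scored 2.57 and 2.41 over 4.64 and 3.97 kb. The third, at 16029773 to 16047095, scored 2.52 and 2.28 over 17.6 and 17.3 kb and lies in the dense window at 16000001. The fourth, at 19882405 to 19904673, is also among the widest and is described with them.

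**Figure D2:**
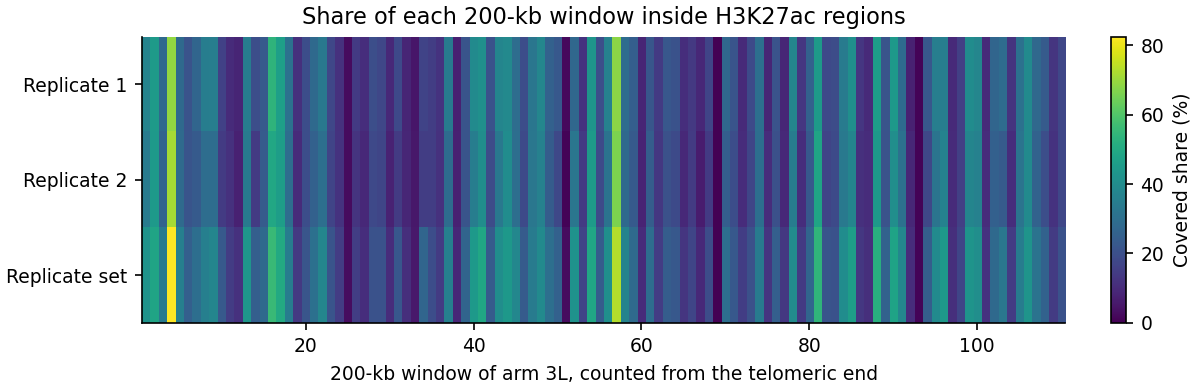
Share of each 200-kb window of arm 3L inside H3K27ac regions (percent, colour scale), with windows counted from the telomeric end from left to right and a row for each of the 3 lists. The brightest columns are the windows beginning at 600001 and 11200001, and the darkest is the window beginning at 13600001, which held no region in any list.

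When regions of both replicates were merged and those less than 5 kb apart were joined into chains, a description chosen after seeing the data, 1149 merged regions formed 562 chains, and 296 of these held a single region. The 13 chains of at least 50 kb held 12.8% of the merged bases. The longest ran from 722939 to 825450, a length of 102.5 kb, of which 78.3% was covered in replicate 1 and 79.9% in replicate 2. It held 13 regions of replicate 1 and 11 of replicate 2 and overlaps the densest window. The next were at 9326899 to 9404559, with a length of 77.7 kb, and at 16139727 to 16211679, with a length of 72.0 kb. Chains take in unmarked breaks of less than 5 kb, so by construction they can be longer than single regions. The widest single region of any list was 45.1 kb, in the replicate set. When only regions under 1 kb apart were joined within a replicate, the widest run was 38.9 kb in replicate 1 and 51.2 kb in replicate 2.

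Regions of at least 10 kb numbered 107 of 1109, or 9.65%, in replicate 1 and 88 of 1100, or 8.00%, in replicate 2. In the whole genome 10.0% of the regions of replicate 1 and 8.61% of those of replicate 2 were that wide, so the shares on 3L were close to the genome's. The replicate set had 119 such regions on 3L, or 9.27%, beside 10.5% in the whole genome. Wide regions held 32.7% of all covered bases of the stretch in replicate 1 and 28.5% in replicate 2. The scores of wide regions had medians of 1.41 and 1.36, those of narrower ones 0.71 in each replicate. They were scattered along the arm, with 28, 23, 27 and 29 in the sections of replicate 1 and 20, 21, 26 and 21 in those of replicate 2. They occurred in 21 of 22 windows of 1 Mb in replicate 1 and in 20 in replicate 2, and the seventh window had none in either.

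The widest both-replicate region lay at 8660937 to 8699642 and measured 38.9 kb in each replicate, with scores of 1.51 in replicate 1 and 1.40 in replicate 2. Its ends were nearly the same in all lists, and the replicate set gave 39.1 kb. The second, at 11229230 to 11258538, measured 29.3 and 29.4 kb, and lies in the dense window at 11200001. The third, at 10651134 to 10678848, measured 29.7 and 27.7 kb and had scores of 2.03 and 1.91. Of these 3, the last was thus the narrowest shared stretch and the highest in score.

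The next 3 were at 4098378 to 4124751, with 26.4 and 26.7 kb, at 542184 to 566450, with 28.0 and 24.3 kb, and at 10840424 to 10864313, with 24.5 and 24.6 kb. The region at 542184 was the least reproducible in width of the 10, since in replicate 1 it began at 538536 and met a second region of replicate 2. The remaining 4 of the 10 widest were at 20375773 to 20398907, at 15521686 to 15544589, at 19882405 to 19904673 and at 16139746 to 16162003, and measured between 22.3 and 24.5 kb in either replicate. The one at 19882405 had the highest score of the 10, with 2.36 in replicate 1 and 2.27 in replicate 2. All 10 had a mean score of at least 1.39, well above the arm's median, and the next region by width, at 20923205 to 20944961, scored only 0.94 and 0.95.

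**Figure D3:**
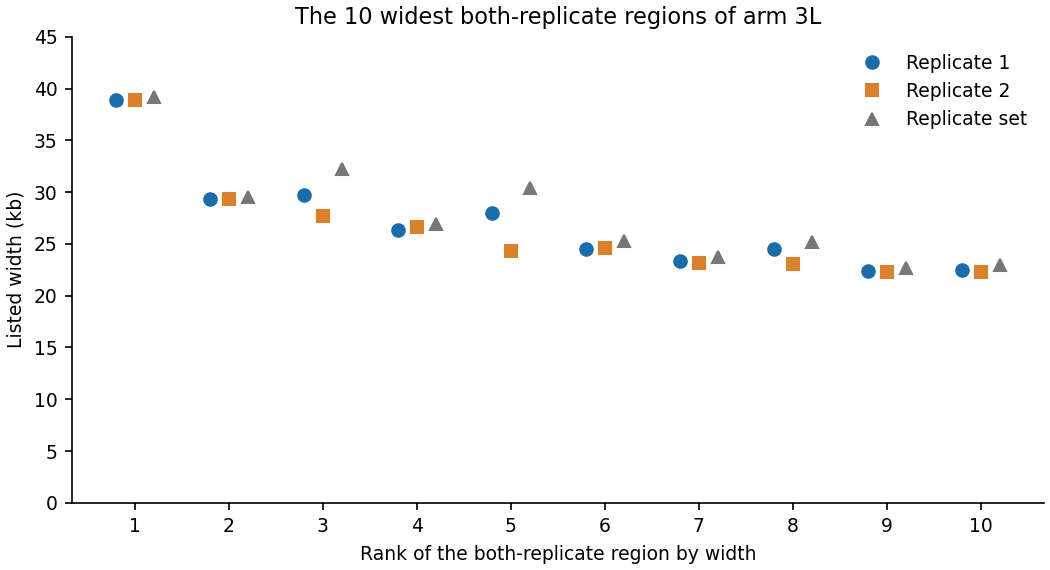
Listed width (kb) of the 10 widest both-replicate regions of arm 3L, ranked from left to right by the width shared by both replicates, with a point for each replicate and for the replicate set. The first region stands apart at 38.9 kb in each replicate, and the replicate set is the widest of the 3 lists at every rank.

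Some regions that were wide in one replicate were divided in the other. All wide regions of each replicate met a region of the other, but 22 of 107 in replicate 1 met no wide one, and 18 of these met more than 1 narrower region. In replicate 2 this held for 4 of 88, of which 3 met more than 1. The region at 9349288 to 9381990 in replicate 1, 32.7 kb wide with a score of 2.17, corresponded to 3 regions of replicate 2 that measured between 5.89 and 19.6 kb. In the opposite direction, the region at 4345561 to 4361731 in replicate 2, 16.2 kb wide, corresponded to 3 regions of replicate 1 of 1.51 to 10.1 kb. Divisions therefore occurred in both directions, but more often with the wide region in replicate 1, which also listed more wide regions. These counts were not made over the whole genome, so they are not read as a trait of 3L.

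Unmarked stretches made up most of the arm, and a large part of them was long. Outside the regions of either replicate lay 74.6% of the 22 Mb, in 1150 stretches with a median length of 4721 bp. At least 50 kb long were 89 of these, which together held 8.02 Mb, or 36.4% of the 22 Mb and 48.8% of the unmarked bases. At least 100 kb long were 25. The sections from the telomeric end held 24, 28, 20 and 17 of the 89, over 2.10, 2.18, 2.12 and 1.63 Mb. Long unmarked stretches thus lay in every section and were fewest in the last. The limit cut the stretch from 21968737, 94.6 kb long in full, to 31264 bp, so it is not among the 89. The first 50994 bp of the arm are counted in the first section.

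The longest ran from 13507525 to 13857088, a length of 349.6 kb, and contained a 200-kb window with no region in any list. Wholly inside it the replicate set listed 1 region of 1341 bp, which neither replicate had. Nearest to it on the telomeric side, replicate 2 had a region of 17244 bp scoring 1.35, which was paired with one of 27332 bp scoring 1.84 in replicate 1. Beyond that, replicate 1 alone listed a further region of 1889 bp scoring 0.31 at this edge. The second, from 4901586 to 5126849, was 225.3 kb long, and the third, from 17050131 to 17260431, was 210.3 kb long, and neither held a whole region of the replicate set. The other 7 of the 10 longest lay at 15298437 to 15493280, at 20535111 to 20722223, at 5361748 to 5535760, at 11830576 to 11994858, at 14799490 to 14960323, at 1972750 to 2132550 and at 18454914 to 18611329, with lengths between 194.8 and 156.4 kb. Of all 89 stretches, 60 held no whole region of the replicate set either, and the other 29 held 42.

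The regions bordering the longest of these stretches ranged from low to high in score, and the stretches named here are examples. The one at 4901586 lay between regions scoring 0.69 and 0.47 in replicate 1 and 0.64 and 0.38 in replicate 2. All of these scores were below the arm's median. The one at 15298437 was followed by regions scoring 1.20 in replicate 1 and 1.28 in replicate 2, which open a chain of 69.6 kb. The one at 18454914 was preceded by a region scoring 0.14 in replicate 1, close to the lowest score of that list, and 0.17 in replicate 2, and was followed by one scoring 1.15 and 1.08. Whether reads could be placed in the unmarked stretches cannot be read from the lists.

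Most regions of each replicate were listed in the other. Of the 1109 regions of replicate 1, 984, or 88.7%, shared at least 1 bp with a region of replicate 2 (95% Wilson interval 86.7 to 90.5%), and over the whole genome the share was also 88.7%. Of the 1100 regions of replicate 2, 1025, or 93.2%, overlapped replicate 1 (91.5 to 94.5%), against 93.7% over the whole genome. The replicates of 3L thus overlapped about as often as those of the genome. Shared bases amounted to 4.66 Mb, which is 88.8% of the covered bases of replicate 1 and 93.3% of those of replicate 2. The intervals cover counting error only, and overlap was similar from section to section, between 87.7 and 89.2% in replicate 1 and between 91.1 and 95.5% in replicate 2.

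Narrow and low-scoring regions were shared less often. Of regions up to 2 kb wide, 145 of 253, or 57.3%, in replicate 1 and 175 of 236, or 74.2%, in replicate 2 were shared. From 2 to 5 kb the shares were 96.9% and 97.7%, and every region over 5 kb was shared in both replicates. In the lowest 25% of scores, 65.1% of the regions of replicate 1 and 78.9% of those of replicate 2 were shared, and in the highest 25% all were. By overlap of at least 1 bp, unshared regions therefore lay among narrow and low-scoring ones. Wide regions meet this measure more easily, and width and score went together, so their parts were not told apart. Wide regions also differed in extent, as described above. With a reciprocal overlap of 50%, 81.7% of replicate 1 and 82.4% of replicate 2 were shared. The 125 unshared regions of replicate 1 were 1585 bp wide in the median, with a median score of 0.46, and the 75 of replicate 2 were 1581 bp wide, also with 0.46. Shares by width, score or reciprocal overlap, and the medians of unshared regions, were not computed over the whole genome. They are therefore not read as a trait of this arm.

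Paired regions had similar scores. Each shared region of replicate 1 was paired with the replicate 2 region that overlapped it by the most bases. A replicate 2 region could thus enter more than 1 pair. Across 984 pairs the scores had a Spearman coefficient of 0.90 and the widths one of 0.85. The score of replicate 1 minus that of replicate 2 averaged 0.04, with an SD of 0.16 over pairs, and 869 pairs, or 88.3%, differed by no more than 0.25. Replicate 1 was the higher in 599 pairs and replicate 2 in 385. Among 850 regions that met exactly 1 partner each way, the starts differed by a median of 131 bp and the ends by 119 bp. No such pair had both ends in common, and in 168 both ends lay within 100 bp. Typical boundaries thus differed by little beside the width of the regions.

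Pairs were formed from replicate 1, so narrow parts of a wide replicate 1 region that replicate 2 divided mostly stay out of them, and the direction of the widest gaps is not read. One such case lay at 1736615 to 1748465, where 11.9 kb of replicate 1 met 3 regions of replicate 2, the narrowest of 1.60 kb. Among the pairs, the 5 farthest apart in width were as follows. At 5535915, replicate 1 listed 1441 bp with a score of 0.50 and replicate 2 listed 16.1 kb with a score of 1.13. At 4349052 and 4346046, replicate 1 listed 1512 and 2402 bp inside the region of 16.2 kb of replicate 2 described above. At 15513286, a region of 1326 bp in replicate 1 and one of 11.1 kb in replicate 2 shared only 58 bp, with scores of 0.34 and 1.04. At 10708945, the widths were 1423 and 8225 bp. Among the 5 pairs farthest apart in score, 3 were of this list, and the region at 20500007 was wider and higher in replicate 1, with 15.4 kb and 1.61 beside 7402 bp and 0.96. The remaining one, at 12116166 to 12119073, had almost the same width, 2954 and 2952 bp, and scores of 1.60 in replicate 1 and 1.01 in replicate 2.

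The highest-scoring regions listed by a single replicate were modest. In replicate 1 they lay at 6141856 to 6143792, with 0.70, at 1856451 to 1859006, with 0.67, and at 9828587 to 9830709, with 0.64. In replicate 2 they lay at 7731364 to 7733480, with 0.77, at 10269300 to 10271626, with 0.69, and at 15213605 to 15216608, with 0.66. All of them scored near or below the arm's median score, and all 6 overlapped a region of the replicate set. The one at 1856451 stood only 300 bp from the nearest region of replicate 2, and the one at 7731364 stood 1339 bp from the nearest of replicate 1.

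**Figure D4:**
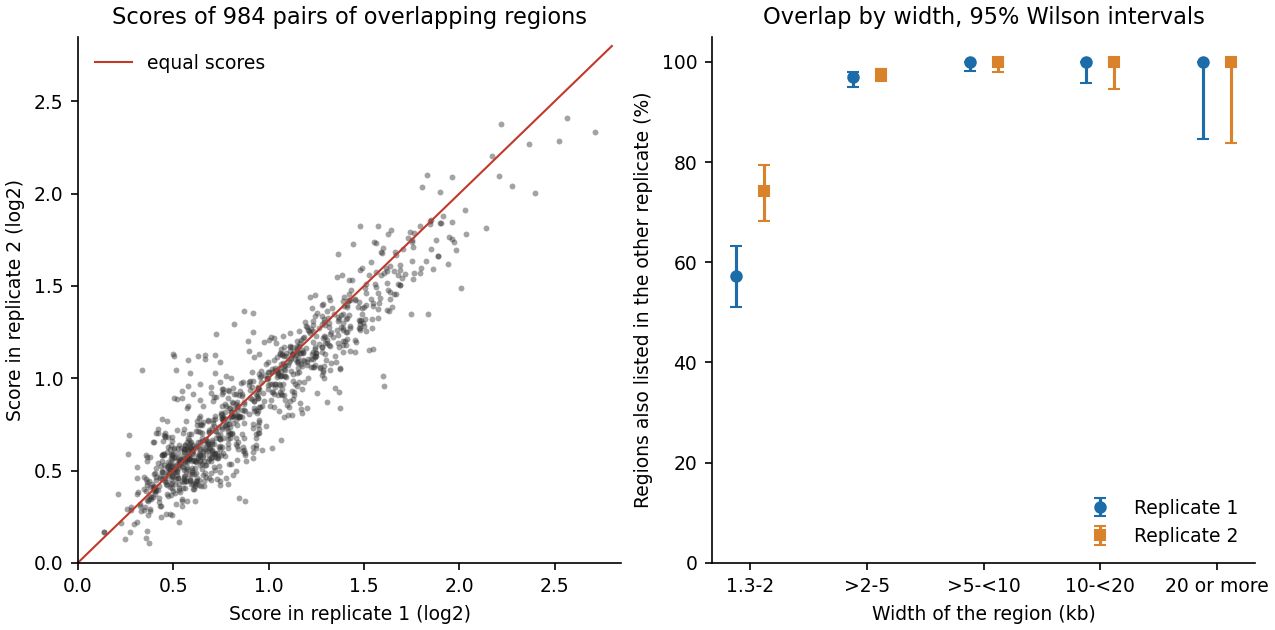
Left, score (log2) of each of 984 pairs of overlapping regions, replicate 1 on the horizontal axis and replicate 2 on the vertical axis, with a line of equal scores. Right, share of regions of each replicate that overlap the other (percent, with 95% Wilson intervals) by width class in kb, which is 57.3% and 74.2% in the narrowest class and 100% in every class over 5 kb.

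The replicate set held nearly all that the replicates listed, together with narrow regions of its own. Of its 1284 regions on 3L, 920, or 71.7% (95% Wilson interval 69.1 to 74.0%), overlapped both replicates, close to the 71.9% of the whole genome, and these held 90.2% of its bases. Overlap with replicate 1 alone was seen in 114 and with replicate 2 alone in 72. The remaining 178, or 13.9%, overlapped neither, beside 13.8% in the whole genome. They occurred in all 22 windows of 1 Mb, were 1237 bp wide in the median and had a median score of 0.34, and 109 of them were narrower than any region of either replicate. In the other direction, 1105 of 1109 regions of replicate 1 and all 1100 of replicate 2 overlapped the replicate set. These shares were not computed over the whole genome, so they are not read as a trait of 3L. All starts and ends of the replicate set are even numbers, whereas between 49.6 and 52.5% are in the replicates.

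The highest score of the arm in any list came from a region that neither replicate listed. At 8491434 to 8492492 the replicate set gave 1059 bp a score of 3.26. Regions at 12916746 to 12917810, with 1065 bp and 2.37, and at 89666 to 90666, with 1001 bp and 2.17, were likewise absent from both replicates. One more, at 8483072 to 8484108, with 1037 bp, scored 1.43, and the other 174 of the 178 regions found in the replicate set alone scored under 0.5. The named ones were all close to the narrowest width of the replicate set, 1001 bp. Whether their scores stand for strong marking was not tested. Of the 5 highest of the replicate set, the other 3, at 3191864, 16029706 and 14028628, scored 2.49, 2.39 and 2.32 and are the 3 highest both-replicate regions named above. Where both replicates had a region, the score of the replicate set minus the mean of both replicates averaged -0.05, with an SD of 0.11 over 1060 regions, and it was the lower in 959.

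A single 3L entry of the replicate set is named as depleted rather than enriched. It lies at 10455220 to 10456952 with a score of -0.01. Replicate 1 listed an enriched region over it, at 10455191 to 10457008, with a score of 0.17, and replicate 2 listed none. The replicate set thus names as depleted a place that replicate 1 names as enriched, at low scores in both lists. The zero point of the scores is not stated, so their signs are not compared between lists.

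Beside the other large arms, taken in full, 3L up to the limit carried more regions per Mb. It had 50.2 ± 0.289 per Mb, against 40.4 ± 0.860 on 2L, 48.5 ± 0.736 on 2R, 46.3 ± 1.22 on 3R and 41.5 ± 1.17 on the X (SD, n = 2). The 3L value was above each of the 4 in both replicates, and exceeded their mean by 5.94 in replicate 1 and 6.11 in replicate 2. With the other arms shortened at the end nearer the centromere by as much as was left out on 3L, 3L was above 2R in only 1 of 2 replicates. With all arms taken in full, 3L had fewer regions per Mb than 2R in both replicates, so its first rank rests on the limit. The covered share was 23.3% ± 0.817 on 3L, against 18.5% ± 0.679 on 2L, 23.6% ± 1.00 on 2R, 21.4% ± 1.04 on 3R and 22.6% ± 1.05 on the X. It was thus above 2L, 3R and the X in both replicates and below 2R in both, and against the shortened arms it was not above the X in either replicate.

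The median score was lowest on 3L in both replicates. It was 0.76 in replicate 1 and 0.77 in replicate 2 on 3L, against 0.80 in each on 2L, 0.86 and 0.84 on 2R, 0.80 and 0.79 on 3R, and 1.01 and 0.97 on the X. The 3L value stood below the mean of the 4 by 0.11 in replicate 1 and 0.08 in replicate 2. Wide regions did not set 3L apart from the mean of the other arms, at 4.43 ± 0.611 per Mb against 4.36 ± 0.502. The difference changed sign between replicates. In both replicates 3L was above 2L (mean 3.39 per Mb) and 3R (4.09) and below 2R (4.94) and the X (5.04). The median width averaged 3108 bp over both replicates on 3L, against 3040 bp on 2L, 3102 bp on 2R, 3134 bp on 3R and 3569 bp on the X, so 3L was below the X in both replicates and above 2L in both. The share of 3L in unmarked stretches of at least 50 kb was 38.9% ± 0.650, against 48.6% ± 0.486 on 2L, 34.7% ± 1.34 on 2R, 42.2% ± 0.193 on 3R and 48.7% ± 0.426 on the X, so it was above 2R and below the others in both replicates. Part of these differences rests on the limit. With 3L taken in full, 3L minus the mean of the others was 2.90 regions per Mb in place of 6.02, 0.06 percentage points of covered share in place of 1.75, and -0.92 percentage points in long unmarked stretches in place of -4.70.

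These differences were taken within each replicate and tested by a two-sided exact sign permutation test, which over 2 replicates cannot give a p below 0.5 and so cannot pass a threshold of 0.05. Of the 9 measures compared, the 7 whose difference had the same sign in both replicates gave an exact p = 0.5, or 0.64 after Benjamini-Hochberg adjustment over the 9. In the same exact test, wide regions per Mb and the share of regions found in both replicates gave p = 1. The arm values are given as descriptions of these lists.

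**Figure D5:**
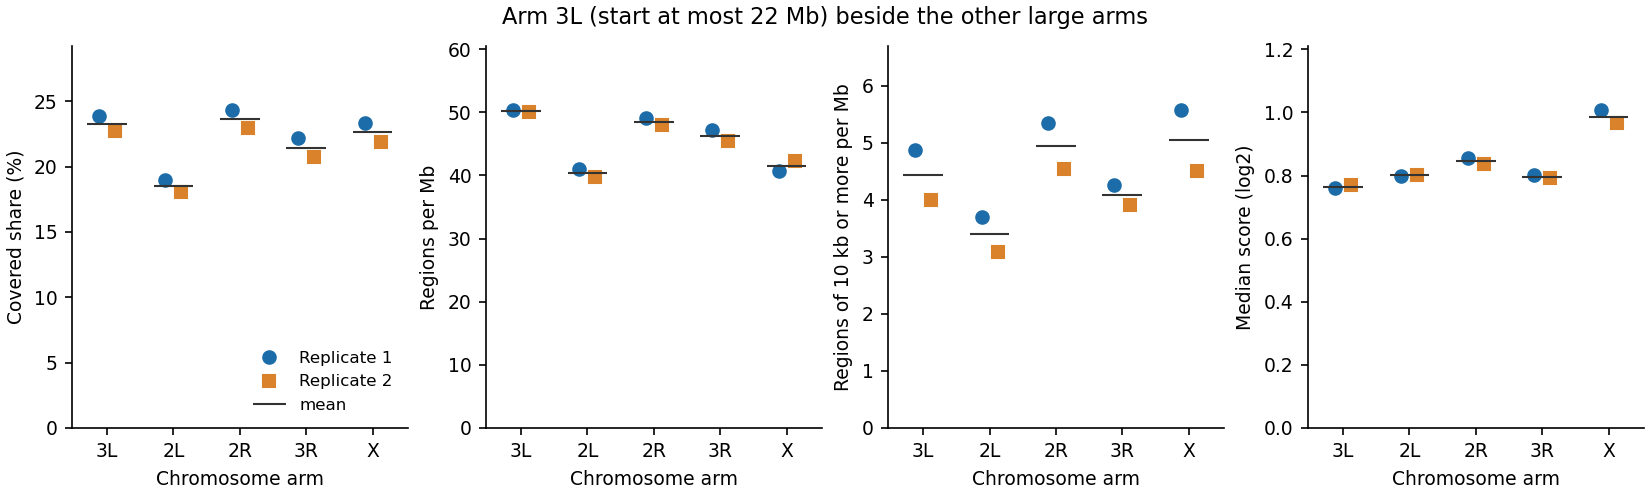
Covered share (percent), regions per Mb, regions of at least 10 kb per Mb and median score (log2) on arm 3L up to the limit of 22 Mb and on arms 2L, 2R, 3R and X in full, with a point for each replicate and a bar at their mean. Up to the limit, arm 3L has the most regions per Mb, 50.4 and 50.0, and the lowest median score, 0.76 and 0.77, in both replicates. Taken in full, it has fewer regions per Mb than 2R.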

How the data were processed

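H3K27ac ChIP-seq of whole larvae of the third instar gave 2 ChIP replicates and 2 inputs. Positions are on FlyBase release 5, per the file headers. The submitters' processing notes list Bowtie 0.12.7. How and at what threshold regions were called, and how the replicate set was built from both replicates, is not given in the sources used here. The deposited scores are the authors' values on a log2 scale. The base was read from the values, since 36.8%, 53.8% and 32.2% of the scores of replicate 1, replicate 2 and the replicate set differed from their list's commonest score by the base-2 log of a ratio of whole numbers (denominator up to 400, numerator up to 1600, relative tolerance 1e-09), and at most 0.39% did with base e or 10. No read counts accompany the lists, so depth is unknown.

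Regions named as enriched on 3L with a start of at most 22000000 were used, and processed in Python 3.11.15 (scipy 1.17.1, pandas 2.3.3, numpy 2.4.6). Overlap means at least 1 bp. Covered shares were computed in 1-Mb and 200-kb windows. Intervals are 95% Wilson intervals. The arithmetic on intervals was tested on simulated data. The difference between 3L and the other large arms was tested within replicates by an exact sign permutation test. The named regions are the widest, the highest, the densest, the emptiest, the most discordant and the outermost, in fixed numbers. The members, lists and limits were chosen with earlier results of these data known. Alternatives were other windows, widths, overlaps and lists. Gene annotation and sequence of release 5 were not used here.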

Additional observations from a re-analysis of the deposited data

How the results depend on the processing

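Depth is unknown and 2 replicates bound every statement. No paired analysis was possible because the inputs, which share the replicate numbers, have no region list used here. Arms were compared within each replicate throughout. The number of regions per replicate was 494.5 on average in the higher-scoring 50% of each list. The covered share was 16.3% among these, 27.5% in the replicate set and 21.6% without the limit. The Spearman coefficient of covered share with distance, -0.04 in the mean of both replicates, was -0.058 when higher-scoring regions alone were used, -0.10 in the replicate set, -0.0047 in 500-kb windows, -0.18 in 2-Mb windows, -0.0032 in shifted windows and -0.32 without the limit, and turned to 0.10 without the telomeric window, a setting chosen after seeing the data. That of median width, -0.44, was -0.25 in the higher-scoring 50%, -0.33 in 500-kb windows, -0.63 in 2-Mb windows, -0.39 in shifted windows and -0.36 without the telomeric window. The densest window had 74.6% at 100 kb, 47.4% at 500 kb and 82.5% in the replicate set. Counted by regions, it shared the highest mean, 20, with the window at 8000001. There were 25 empty stretches of at least 100 kb, and the longest measured 418.5 kb among higher-scoring regions, 281.0 kb in the replicate set and 349.6 to 362.2 kb with either replicate left out. Wide regions averaged 289.5 at 5 kb and 20.5 at 20 kb. With reciprocal overlap of 50%, the shared part was 81.7% for replicate 1 and 82.4% for replicate 2, the replicate set met both in 65.3%, and the score coefficient was 0.93. In the higher-scoring 50%, 90.8% of replicate 1 was shared and the coefficient was 0.84. The difference of 3L minus the other arms in wide regions per Mb, 0.07, was -0.16 with those arms shortened, -0.35 with 3L in full, -0.29 in the replicate set and -0.0089 to 0.14 with either replicate left out. That in empty stretches per Mb, 0.13, was -0.20 in the replicate set, and that in percent shared, -0.39, lay between -0.80 and 0.030 with either replicate left out. With 3L in full, that in covered share was 0.06 percentage points in place of 1.75. The trends of score and of region number were recomputed only in the replicate set and without the telomeric window. The other values that were recomputed kept their direction, and the cause of these changes was not tested.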
